A study of Mus musculus with 6 samples.

Results

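The genes described here are the TREM receptors (triggering receptors expressed on myeloid cells) listed for mouse neutrophils, *Trem1*, *Trem2*, *Trem3*, *Treml2* and *Treml4*, with the adaptors DAP12 (*Tyrobp*) and DAP10 (*Hcst*). They were taken by gene name, as a family chosen with earlier results of these data known, and are 7 of the 29097 genes listed. The libraries came from CD45+CD11b+Ly6G+ neutrophils sorted from the peripheral blood (PB) of wild type male C57BL/6 mice aged 8 weeks, after lysis of red cells. In LIP mice (ligature-induced periodontitis), silk had been tied for 14 d around the second molars of both jaws on both sides, and Ctrl mice had no ligature. There were 3 libraries per group, each made by Smart-seq2 from the pooled cells of 5 mice, so the spread given is between pools and not between animals.

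TREM receptors are small cell surface proteins with an immunoglobulin-like domain and, in most members, a short tail that carries no signalling motif. A positively charged residue in the membrane pairs them with DAP12, whose ITAM (immunoreceptor tyrosine-based activation motif) is phosphorylated by Src family kinases and then recruits Syk. DAP10 instead carries a motif that recruits PI3 kinase. TREM-1 is best known on neutrophils and monocytes, where it amplifies the response to microbial products. TREM-2 is known from macrophages, microglia and osteoclasts, where it can dampen inflammatory responses.

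Both adaptors and 3 of the receptors were higher in the LIP libraries under TMM normalization. The rise was 1.75-fold for *Hcst*, 2.13-fold for *Treml4*, 2.68-fold for *Trem1*, 2.86-fold for *Tyrobp* and 3.12-fold for *Trem3*. The libraries also held reads of red cell and lymphocyte genes, as given below. *Treml2* did not pass the test, and *Trem2* lay below the filter on low values. Thus 5 of the 6 members tested were higher and 0 lower, where 53.6% of all 10440 genes tested passed, 26.5% higher and 27.2% lower. The same 5 had normalized values that did not overlap between the groups, as had 63.4% of all genes tested, 30.3% in the direction of LIP. These directions rest on the scaling of the libraries. With scaling on 21 mature neutrophil genes, which took a larger share of the LIP reads, 0 of the 6 were higher and 5 lower, where 0.651% of all genes were higher and 88% lower.

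Levels are given first as FPKM, the fragments scaled to gene length and library size, which can be compared between genes. *Tyrobp* had the highest level, with 1323, 1480 and 1424 FPKM in the 3 Ctrl libraries and 3151, 3361 and 3268 FPKM in the 3 LIP libraries. It ranked 29 among the 29097 genes by mean FPKM, and every LIP library lay above every Ctrl library. Read counts were normalized by TMM, a scaling under which most genes are taken as unaltered, and expressed as counts per library total (CPM). On that scale *Tyrobp* went from 912 ± 66.2 CPM in Ctrl to 2609 ± 72.6 CPM in LIP (SD, n = 3 each). The log2 fold change was 1.52 (SE 0.0800, 95% interval 1.34 to 1.69, adjusted p = 2.83e-07, edgeR's quasi-likelihood test).

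*Hcst*, the other adaptor, measured 73.7, 85.0 and 77.4 FPKM in Ctrl and 116, 108 and 109 FPKM in LIP. Its groups did not overlap either, and its mean rose from 55.2 ± 4.91 to 96.4 ± 4.35 CPM (SD, n = 3 each). The log2 fold change was 0.81 (SE 0.123, 95% interval 0.53 to 1.08, adjusted p = 0.000321, edgeR). Among the members that passed the test *Hcst* had the lowest estimate, and its interval overlapped that of *Treml4*. *Klrk1*, the gene of its best known partner receptor NKG2D and chosen here after its values were seen, had 6.95 FPKM in Ctrl and 7.84 FPKM in LIP on average, with a log2 fold change of 0.48 (adjusted p = 0.0137, edgeR). *Klrk1* is also in the NK cell marker list, and the part of NK or T cells in the values of *Hcst* and *Klrk1* was not tested.

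*Trem1*, the receptor that amplifies neutrophil and monocyte responses, ranked 154 by mean FPKM and was the most abundant of the 5 receptors. It measured 214.9, 170.8 and 213.9 FPKM in Ctrl against 421.5, 463.3 and 412.1 FPKM in LIP. The second Ctrl library was the lowest of the 6, and the groups lay far apart. In CPM the means were 580 ± 66.2 and 1554 ± 95.2 (SD, n = 3 each), which is a log2 fold change of 1.42 (SE 0.101, 95% interval 1.20 to 1.65, adjusted p = 1.61e-06, edgeR).

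*Trem3*, a DAP12-pairing receptor that is functional in mice and a pseudogene in humans, ranked 318. It measured 85.1, 89.5 and 89.5 FPKM in Ctrl and 234.8, 223.7 and 207.8 FPKM in LIP. The Ctrl libraries were almost level, and the lowest LIP library was above all of them. With 84.9 ± 3.76 CPM in Ctrl and 265 ± 17.3 CPM in LIP (SD, n = 3 each), its log2 fold change of 1.64 (SE 0.107, 95% interval 1.40 to 1.88, adjusted p = 9.5e-07, edgeR) had the highest estimate among the members, and its interval overlapped those of *Tyrobp*, *Trem1* and *Treml4*.

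*Treml4*, a receptor known from monocytes, macrophages and dendritic cells, measured 14.4, 20.4 and 19.2 FPKM in Ctrl and 28.7, 30.5 and 33.8 FPKM in LIP. The groups did not overlap, although the first Ctrl library was well below the other two. Means were 35.0 ± 6.73 CPM in Ctrl and 74.4 ± 5.97 CPM in LIP (SD, n = 3 each), and the log2 fold change was 1.09 (SE 0.167, 95% interval 0.72 to 1.46, adjusted p = 0.000327, edgeR).

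*Treml2*, a longer-tailed relative found on B cells and myeloid cells, did not follow the others. It measured 13.1, 11.6 and 9.71 FPKM in Ctrl and 11.5, 10.8 and 9.37 FPKM in LIP, so the groups overlapped. TMM gave 54.6 ± 7.54 and 62.3 ± 6.63 CPM (SD, n = 3 each) and a log2 fold change of 0.19 (SE 0.150, 95% interval -0.14 to 0.52, adjusted p = 0.309, edgeR). The interval leaves room for a small change in either direction. B cell markers fell in the same libraries, as given below.

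*Trem2* was barely detected. It measured 0.618, 0.828 and 0.601 FPKM in Ctrl and 0.987, 0.719 and 0.589 FPKM in LIP, which rested on 165 to 298 reads per library. The groups overlapped, and the mean lay under the filter of 1 FPKM. In a fit without the filter, its log2 fold change was 0.50 (SE 0.394, 95% interval -0.41 to 1.40, adjusted p = 0.408, edgeR), so no difference was detectable at this depth.

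**Figure D1:**
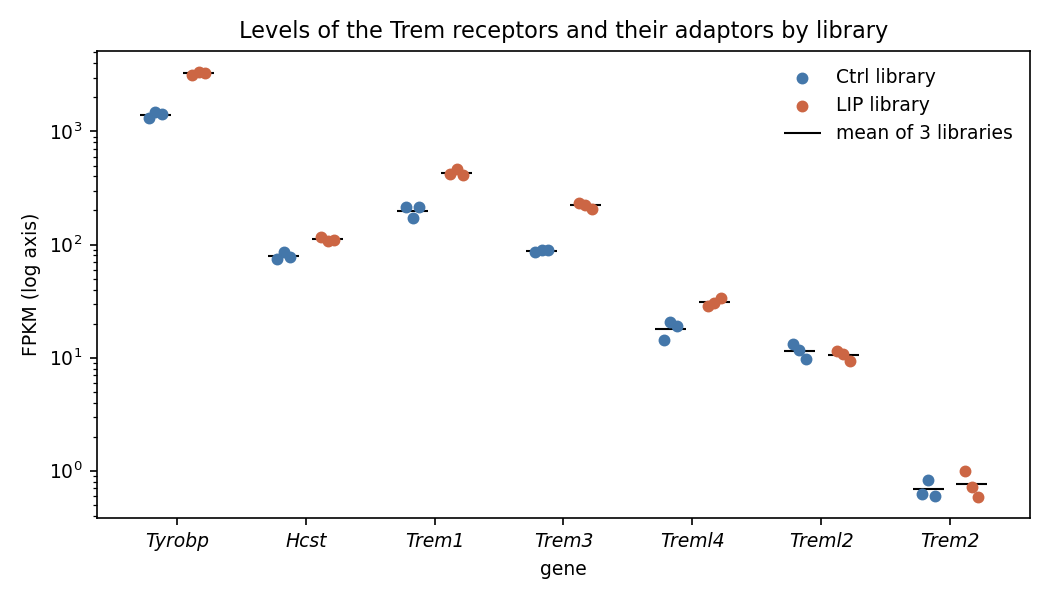
FPKM of each gene in each library on a log axis, with blue points for the 3 Ctrl libraries, orange points for the 3 LIP libraries and black bars for their means. *Tyrobp* lies highest, between 1323 and 3361 FPKM, and *Trem2* lowest, under 1 FPKM, and only *Treml2* and *Trem2* have overlapping groups.

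The order of levels in FPKM was the same in both groups, from *Tyrobp* through *Trem1*, *Trem3*, *Hcst*, *Treml4* and *Treml2* to *Trem2*. Neighbours in this order had ranges that did not overlap in either group. The closest were *Trem3* and *Hcst* in Ctrl, whose lowest and highest libraries were 85.1 and 85.0 FPKM. Next came *Treml4* and *Treml2* in Ctrl, with 14.4 and 13.1 FPKM, and these moved apart in LIP to 28.7 and 11.5 FPKM.

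The 5 receptors lie in a cluster on chromosome 17 and the adaptors side by side on chromosome 7 (GRCm38 coordinates of the deposited table). *Trem1* (ENSMUSG00000042265) spans chr17:48232768-48246924, *Trem3* (ENSMUSG00000041754) chr17:48247777-48258841 and *Treml4* (ENSMUSG00000051682) chr17:48264295-48275360. *Treml2* (ENSMUSG00000071068) follows at chr17:48299498-48312533 and *Trem2* (ENSMUSG00000023992) at chr17:48346401-48354147, all on the plus strand. The cluster covers 121 kb, and the smallest gap between members is 852 bases, between *Trem1* and *Trem3*. *Tyrobp* (ENSMUSG00000030579) lies at chr7:30413760-30417582 on the plus strand and *Hcst* (ENSMUSG00000064109) at chr7:30417712-30419854 on the minus strand, tail to tail and 129 bases apart.

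No upstream sequence was at hand for *Tyrobp*, *Trem3* or *Treml2*, so members that rose cannot be set against *Treml2*, which did not. Sequences upstream of the RefSeq starts (GRCm38.p6) were at hand for the other 4 of the 7 members and are shown. Each runs 5′ to 3′ over the 250 bases before the start, at chr17:48232489-48232738 (plus strand) for *Trem1*, chr17:48264045-48264294 (plus strand) for *Treml4*, chr7:30419855-30420104 (minus strand) for *Hcst* and chr17:48346151-48346400 (plus strand) for *Trem2*. Capitals mark matches on either strand to AGGAAG, a core of ETS family sites such as those of PU.1, or to TTNNGNAA, a form of the C/EBP site. PU.1 and C/EBP factors are myeloid transcription factors.
Trem1: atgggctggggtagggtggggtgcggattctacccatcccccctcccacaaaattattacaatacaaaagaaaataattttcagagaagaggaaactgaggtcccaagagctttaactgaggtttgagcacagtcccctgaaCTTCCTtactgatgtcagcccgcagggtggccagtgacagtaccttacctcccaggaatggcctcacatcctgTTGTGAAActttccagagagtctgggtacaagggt
Treml4: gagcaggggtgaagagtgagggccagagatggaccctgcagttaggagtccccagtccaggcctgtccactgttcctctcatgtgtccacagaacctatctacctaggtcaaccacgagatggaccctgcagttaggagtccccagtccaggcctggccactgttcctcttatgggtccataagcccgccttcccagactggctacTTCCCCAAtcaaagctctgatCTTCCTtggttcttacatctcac
Hcst: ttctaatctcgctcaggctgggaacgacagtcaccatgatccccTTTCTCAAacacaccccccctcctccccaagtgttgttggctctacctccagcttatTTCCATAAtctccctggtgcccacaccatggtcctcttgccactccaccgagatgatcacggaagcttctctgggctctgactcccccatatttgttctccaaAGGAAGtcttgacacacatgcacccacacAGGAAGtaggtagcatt
Trem2: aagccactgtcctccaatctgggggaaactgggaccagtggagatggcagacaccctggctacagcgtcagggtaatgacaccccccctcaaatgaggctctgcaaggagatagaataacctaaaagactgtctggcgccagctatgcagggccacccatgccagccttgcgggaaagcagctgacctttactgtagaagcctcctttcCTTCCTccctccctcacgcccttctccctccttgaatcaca

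All 4 windows held AGGAAG or its reverse complement, which 29.5% of the 32851 RefSeq windows of the same length hold. It lay 108 to 103 bases before the start in *Trem1*, 23 to 18 in *Treml4*, and 41 to 36 in *Trem2*, each on the minus strand relative to the gene. The *Trem1* window ends at 48232738, short of the gene start at 48232768 in the deposited table. Distances in *Trem1* therefore hold for the RefSeq start only. *Hcst* had matches at 46 to 41 and at 17 to 12 bases before its start, on its own strand. TTNNGNAA was found in *Trem1* (35 to 28 bases before the start), *Treml4* (44 to 37) and *Hcst* (206 to 199 and 149 to 142) and was not among the letters of the *Trem2* window, against 36.8% of all windows. The *Trem2* window held the AP-1 sequence TGANTCA 9 to 3 bases before the start, a match found in 6.75% of windows. A form of the NF-kappaB site (GGG and CC with any 5 bases between them, in 45.8% of windows) and the core of interferon response elements (GAAA, any 2 bases, GAAA, in 2.98%) occurred in none of the 4. No marked match overlapped another, and a match of letters is no evidence of binding.

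Ratios within a library do not depend on scaling, so each receptor was set against DAP12 in the same library. *Trem1* stood at 16.2%, 11.5% and 15.0% of the *Tyrobp* FPKM in Ctrl and at 13.4%, 13.8% and 12.6% in LIP. The LIP values lay within the Ctrl range, and the mean log2 difference was -0.09 (two-sided exact permutation p = 0.6, adjusted p = 0.7 over 7 ratios). *Trem3* stood at 6.43%, 6.05% and 6.28% in Ctrl and 7.45%, 6.66% and 6.36% in LIP, again overlapping (log2 difference 0.12, exact permutation p = 0.2, adjusted p = 0.28). The ranges of both ratios overlapped between the groups, and 3 libraries per group cannot give a p below 0.1.

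The other members were lower relative to DAP12 in every LIP library than in any Ctrl library, as were 82.7% of all genes tested. *Treml2* went from 0.988%, 0.784% and 0.682% of *Tyrobp* to 0.365%, 0.320% and 0.287%, a log2 difference of -1.33. *Hcst* went from 5.57%, 5.74% and 5.43% to 3.69%, 3.22% and 3.34% (log2 difference -0.71). *Treml4* went from 1.09%, 1.38% and 1.35% to 0.910%, 0.909% and 1.03% (log2 difference -0.41). *Trem2*, at under 0.06% of *Tyrobp* in all libraries, had a log2 difference of -1.06. Each of these 4 reached the smallest exact permutation p that the design allows, 0.1 (adjusted p = 0.175). *Clec5a*, another myeloid receptor that signals through DAP12, stood at 1.11%, 1.00% and 0.770% in Ctrl and 0.867%, 0.990% and 0.874% in LIP, which overlapped (log2 difference -0.07, exact permutation p = 0.8).

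**Figure D2:**
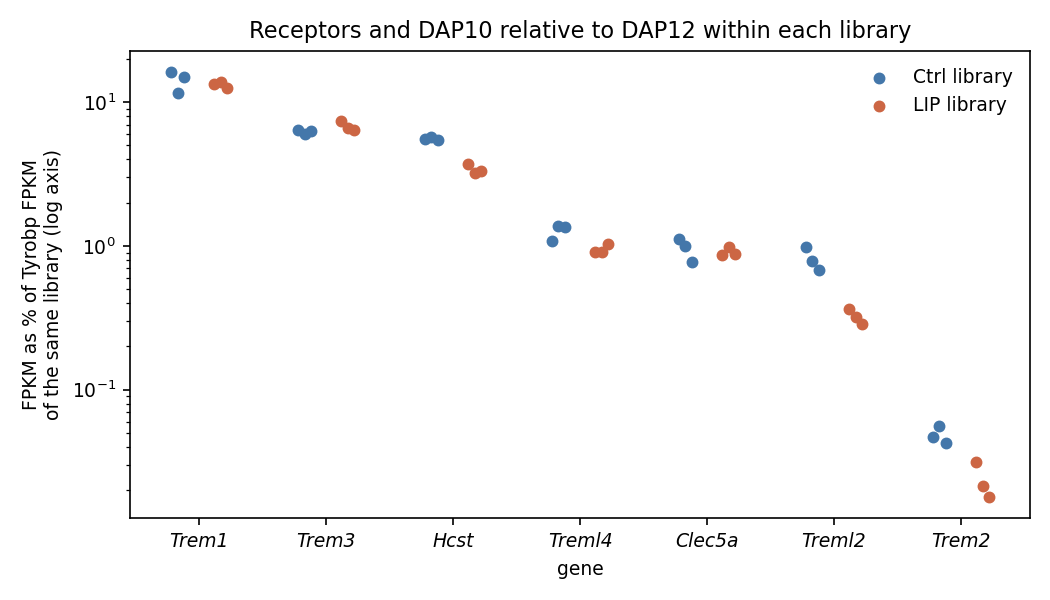
FPKM of 6 members and *Clec5a* as a percentage of *Tyrobp* FPKM in the same library, on a log axis, with blue points for Ctrl and orange points for LIP libraries. *Trem1*, *Trem3* and *Clec5a* overlap between groups, and *Hcst*, *Treml4*, *Treml2* and *Trem2* lie lower in all 3 LIP libraries.

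The libraries differed in make-up between the groups. Totals were 52186555 to 57262379 reads, and TMM factors were 1.10 to 1.13 in Ctrl and 0.889 to 0.905 in LIP. Haemoglobin genes took 14.6% to 15.0% of Ctrl reads and 1.55% to 1.61% of LIP reads, and all 8 erythroid genes tested were lower in LIP. The 21 mature neutrophil genes, among them the sorted marker *Ly6g*, took 2.07% to 2.31% and 6.20% to 6.58%, and all 21 were higher in LIP. This list also holds *Camp*, *Ltf*, *Ngp*, *Il1b* and *Acod1*, and its log2 fold changes ran from 0.39 to 2.66 with TMM. The list is called mature as a label only, and the maturity of the cells was not tested. Whether its genes rose within each neutrophil was not tested. All 14 B cell markers were lower, with 2.12% to 2.28% of Ctrl reads and 0.345% to 0.353% of LIP reads, and so were all 16 T cell markers (0.111% to 0.120% and 0.0194% to 0.0233%). Fewer cells of a type and less RNA per cell cannot be told apart in pooled cells, and the part of these other cells in the members' changes was not tested.

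Monocytes and platelets share genes with the cluster described here. Of 13 monocyte, macrophage and dendritic cell markers tested, 12 were higher in LIP, and the list took 0.164% to 0.201% of Ctrl reads and 0.263% to 0.277% of LIP reads. The macrophage genes *C1qa*, *C1qc* and *Mrc1* and the dendritic cell genes *Xcr1*, *Clec9a*, *Flt3* and *Zbtb46* averaged under 1 FPKM, though no listed marker was at 0 in all libraries. Platelet markers took 0.126% to 0.145% and 0.247% to 0.302%, with all 11 higher. NK cell markers took 0.0767% to 0.0863% and 0.0706% to 0.0757% of reads, and with TMM 4 of 12 were higher and 0 lower. Read shares are not scaled by TMM, with which 26.5% of all genes tested were higher and 27.2% lower. The part of monocytes or platelets in the values of *Treml4*, *Trem1* or *Tyrobp*, which monocytes also express, was not tested.

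Set against the mature neutrophil genes of the same library, every member was lower in LIP. *Tyrobp* gave 46.0, 46.4 and 46.6 reads per 1000 reads of these genes in Ctrl and 36.4, 36.3 and 37.0 in LIP, a log2 difference of -0.34. *Trem1* gave 33.6, 24.1 and 31.4 in Ctrl and 21.9, 22.5 and 21.0 in LIP (log2 difference -0.43). *Trem3*, with 4.41, 4.18 and 4.36 in Ctrl and 4.04, 3.60 and 3.51 in LIP, had a log2 difference of -0.22, which became -0.12 (exact permutation p = 0.3), with overlapping groups, when the 2 most abundant neutrophil genes were left out. The difference was -0.76 for *Treml4*, -1.05 for *Hcst*, -1.41 for *Trem2* and -1.67 for *Treml2*. With the whole list no member's groups overlapped, and each two-sided exact permutation p was 0.1, the smallest possible. Of all genes tested, 89.6% were likewise lower without overlap on this scale (87.9% without the 2 most abundant neutrophil genes), so the members' count is near the background.

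A change of scaling shifts all genes by about the same amount, so the distance of a member from the median of all genes tested is set by construction and only the zero line moves. That median was -0.10 (log2) with TMM, -0.42 with library totals, -0.62 with library totals that leave out the haemoglobin genes and -1.89 when libraries were scaled on mature neutrophil genes. *Tyrobp* lay 1.61 above the median in each of these, *Trem3* 1.74, *Trem1* 1.51 to 1.52, *Treml4* 1.18 to 1.19, *Hcst* 0.90 and *Treml2* 0.28. Under library totals without haemoglobin genes, *Hcst* no longer passed the test (log2 fold change 0.28, adjusted p = 0.0645, edgeR). Under scaling on mature neutrophil genes the values were -0.28 for *Tyrobp*, -0.38 for *Trem1*, -0.15 for *Trem3*, -0.70 for *Treml4*, -0.98 for *Hcst* and -1.61 for *Treml2*, and *Trem3* alone did not pass the test (adjusted p = 0.203, edgeR).

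**Figure D3:**
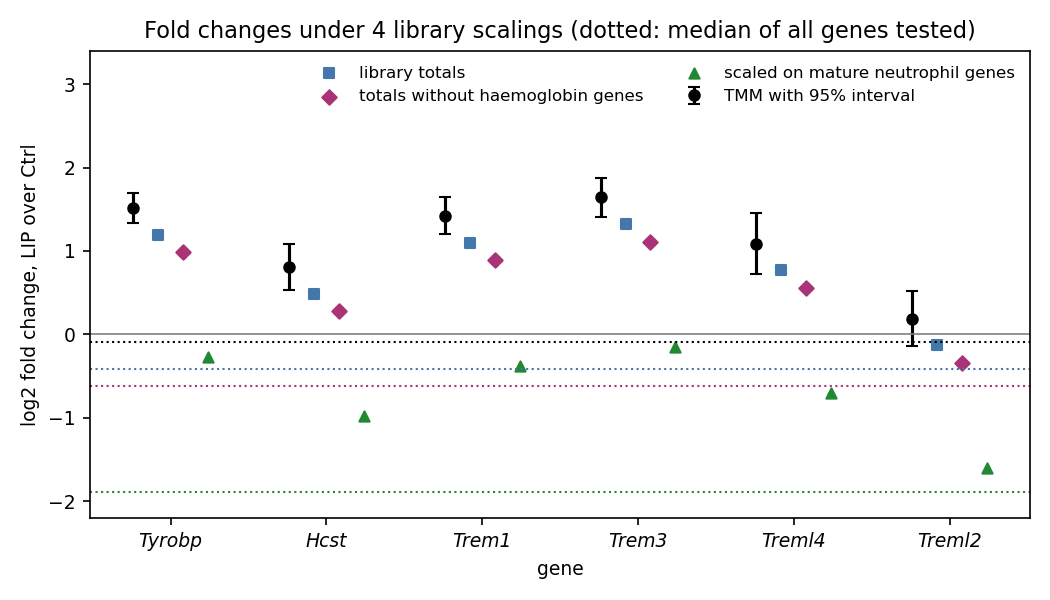
Log2 fold change (LIP over Ctrl) of the 6 members tested under 4 scalings, with TMM as black circles and their 95% intervals, and with a dotted line in the same colour for the median of all genes tested. The members shift together with the median, from -0.10 with TMM to -1.89 with scaling on mature neutrophil genes, where all 6 lie below 0.

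Around the TREM cluster, 7 other genes within 100 kb were tested, 5 of them higher in LIP and 1 lower. The shares of all genes tested were 26.5% higher and 27.2% lower. *Treml1* (TLT-1), a platelet receptor of the same family and also in the platelet list, rose from 28.3 ± 3.01 to 53.5 ± 6.75 FPKM (SD, n = 3 each), with a log2 fold change of 1.23 (adjusted p = 5.23e-05, edgeR). *Oard1* did not pass (0.03, adjusted p = 0.915), and *Tspo2*, an erythroid gene, fell (-2.08, adjusted p = 0.00603). The rest, named after their values were seen, are *9830107B12Rik* (2.09), *A530064D06Rik* (1.85), *B430306N03Rik* (1.96) and *Gm18679* (3.17). *Gm18679* is a pseudogene inside *Trem1* on the opposite strand, so its reads and those of *Trem1* cannot be told apart if strand was not used in counting, but it averaged 1.46 FPKM. No run of 50 bases was shared between the transcripts of any members, *Treml1* and *B430306N03Rik* included. *Foxp4*, farther away on the chromosome, fell by 1.39 on the log2 scale (adjusted p = 0.00323, edgeR).

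Near *Tyrobp* and *Hcst*, 4 other genes were tested, of which 1 was higher and 3 lower, against 26.5% and 27.2% of all genes tested. *Nfkbid*, an atypical IkappaB protein, rose from 320 to 711 CPM (log2 fold change 1.15, adjusted p = 4.47e-06, edgeR). *Sdhaf1*, an assembly factor of succinate dehydrogenase, fell by 0.73 on the log2 scale (adjusted p = 0.00451, edgeR). *Alkbh6* (-0.69) and *Rps12-ps4* (-1.53), named after their values were seen, were also lower.

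Genes of the wider pathway were grouped by role into lists holding 84 genes, of which 78 were tested, 45 were higher and 14 lower. The background shares were 26.5% and 27.2%, and the lists' median log2 fold change was 0.68 against -0.10 for all genes tested. Scaling on mature neutrophil genes turned these counts to 1 higher and 62 lower, so the directions below hold for TMM. Genes are named from the 4 of highest mean FPKM in each list.

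All 6 proposed ligands of TREM-1 or TREM-2 listed passed the test, 4 higher and 2 lower (median 0.71). The 2 that fell, named after their values were seen, were *Hmgb1* (-0.64, adjusted p = 0.0031) and *Cirbp* (-0.70, adjusted p = 0.00231, edgeR). *Pglyrp1*, a peptidoglycan recognition protein of neutrophil granules that binds TREM-1, measured 172, 189 and 176 FPKM in Ctrl and 432, 442 and 441 FPKM in LIP (log2 fold change 1.60, SE 0.0870, adjusted p = 3.27e-07, edgeR). *Actb*, reported as a TREM-1 ligand on platelets, rose by 0.89 (adjusted p = 5.13e-06). The TREM-2 ligands *Apoe* and *Clu* rose by 0.54 (adjusted p = 0.00105) and 1.23 (adjusted p = 3.86e-05), though *Trem2* itself was near the limit of detection.

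Of the 13 other receptors tested that were listed as DAP12-pairing, 9 were higher and 0 lower, with a median of 1.52. Pairing with DAP12 was not tested for *Cd300ld* or any other gene of this list. The 4 that did not pass, named after their values were seen, were *Klra4* (0.48), *Klrc2* (0.42), *Klra8* (0.39) and *Klrd1* (-0.0053). *Klra4*, *Klra8* and *Klrd1* are in the NK cell marker list, as is *Klrk1* (0.48), the lowest that passed. The others that passed lay between 1.44 and 2.10, so the median of 1.52 does not describe the whole list. *Cd300lb* measured 30.7, 20.4 and 26.8 FPKM in Ctrl and 90.2, 96.5 and 83.4 FPKM in LIP, a log2 fold change of 2.10 (adjusted p = 1.42e-06, edgeR). *Sirpb1b* (1.79), *Cd300ld* (1.61) and *Pilrb2* (1.60) rose as well, with adjusted p-values of 6.97e-07, 2.86e-06 and 2.67e-06. *Sirpb1b*, *Cd300ld* and *Pilrb2* belong to families of near-identical genes, between which the counting may have split reads, so their values are uncertain.

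Of the 8 other ITAM adaptors, 2 were higher and 6 lower (median -2.50), and all 6 that fell are in the B or T cell marker lists. *Fcer1g*, the Fc receptor gamma chain of myeloid cells, measured 671, 816 and 760 FPKM in Ctrl and 1731, 1772 and 1706 FPKM in LIP. Its log2 fold change of 1.52 (SE 0.0950, adjusted p = 7.18e-07, edgeR) was the same to 2 decimals as that of *Tyrobp*. *Nfam1*, an ITAM receptor of B and myeloid cells, rose by 1.76 (adjusted p = 2.3e-06). *Cd79a* (-2.63) and *Cd79b* (-2.61), the signalling chains of the B cell receptor, fell with adjusted p-values of 5.93e-08 and 3.39e-07.

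Among 25 kinases and adaptors that act after DAP12 and DAP10, 15 were higher, 5 lower and 5 did not pass (median 0.76). The Src family kinases *Fgr* (1.83, adjusted p = 5.36e-07) and *Lyn* (1.08, adjusted p = 1.03e-05) rose, and so did the adaptor *Grb2* (0.64, adjusted p = 0.000407). *Syk*, the kinase that binds the DAP12 ITAM and named after its values were seen, rose from 295 to 490 CPM (0.73, adjusted p = 0.00072, edgeR). The 5 lower genes, also named after their values were seen, were *Fyn* (-0.81), *Lck* (-1.32), *Zap70* (-1.27), *Lat* (-1.50) and *Lat2* (-1.31). Of these, *Lck* and *Lat* are in the T cell marker list.

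Negative regulators were mixed, with 5 of 10 higher, 1 lower and 4 not passing (median 0.41). *Siglece*, an inhibitory sialic acid receptor of neutrophils, measured 43.3, 41.3 and 42.0 FPKM in Ctrl and 147, 149 and 159 FPKM in LIP (log2 fold change 2.16, adjusted p = 1.55e-07, edgeR). *Dok3* rose by 0.92 (adjusted p = 1.82e-05) and *Ptpn6*, the phosphatase SHP-1, by 0.51 (adjusted p = 0.000451). *Inpp5d*, the phosphatase SHIP-1 that binds DAP12, did not pass (0.31, adjusted p = 0.0996), but passed without the first Ctrl library (0.42, adjusted p = 0.0461).

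Sheddases and gamma-secretase subunits, which release and clear TREM receptors, had 4 of 8 higher and 0 lower (median 0.45). *Mmp9*, which is also in the mature neutrophil list, rose by 1.84 (adjusted p = 3.59e-07), *Ncstn* by 0.81 (adjusted p = 0.00043) and *Psenen* by 0.47 (adjusted p = 0.0132). *Psenen* did not pass without the first LIP library (0.39, adjusted p = 0.052). *Ncstn* overlaps *Copa*, with mean levels of 14.7 and 11.9 FPKM, so its value is uncertain. Of 8 cytokines made when TREM-1 is crosslinked, 6 were higher and 0 lower (median 0.96). *Il1b* rose from 3441 to 12844 CPM (3.73-fold, adjusted p = 5.93e-08, edgeR) and *Cxcl2* from 4455 to 15237 CPM (1.77, adjusted p = 5.31e-08), while *Ccl3* (0.85, adjusted p = 0.000144) and *Ccl4* (0.48, adjusted p = 0.0132) rose too. *Ccl4* did not pass without the third Ctrl library (0.39, adjusted p = 0.0633). *Il1b*, too, is in the mature neutrophil list.

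**Figure D4:**
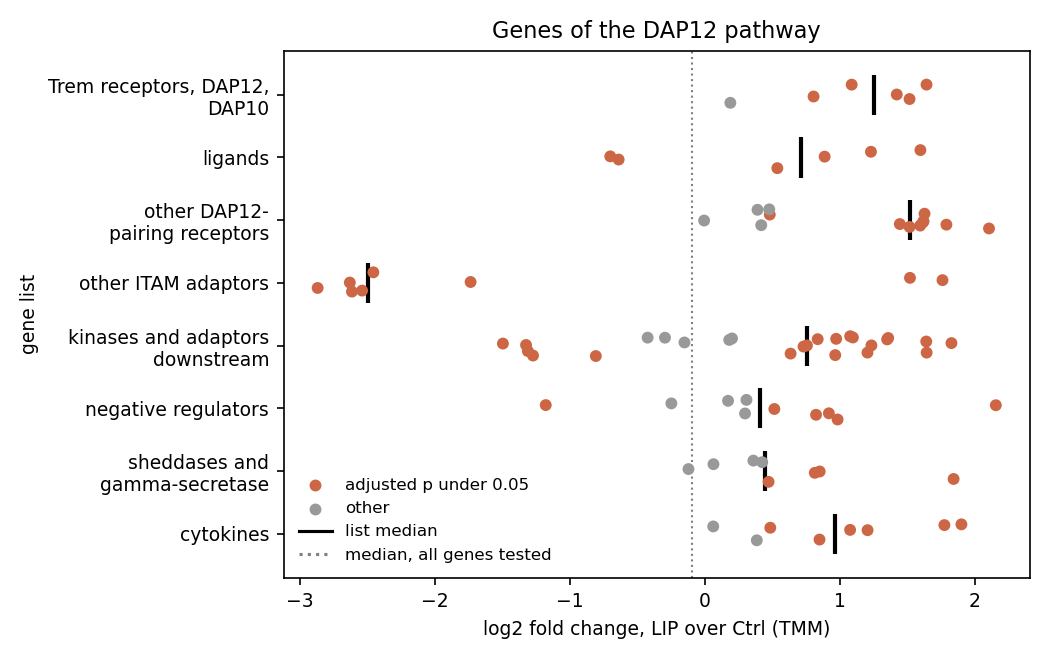
Log2 fold change (LIP over Ctrl, TMM) of each tested gene by list, with orange points for an adjusted p under 0.05, grey points for the rest, a black bar for each list's median and a dotted line for the median of all genes tested, -0.10. The TREM and DAP12 genes have a median of 1.25. The other receptors listed as DAP12-pairing have a median of 1.52 and run from -0.0053 to 2.10. The other ITAM adaptors have a median of -2.50.

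The genes most like each member across the 6 libraries were found by the root mean square difference of log2 CPM, each gene centred on its own mean, among 3380 genes with a mean of at least 10 FPKM. *Spi1*, the gene of PU.1, was nearest to *Tyrobp* (0.0192), followed by *Hdac4* (0.0248). *Sdcbp* (0.0432) and *Chp1* (0.0437) were nearest to *Trem1*, and *Csf2ra* (0.0380), the alpha chain of the GM-CSF receptor, and *Hlx* (0.0432) to *Trem3*. The remaining members had *AI467606* (0.0634) and *Gng11* (0.0729) for *Treml4*, *Pfn1* (0.0410) and *Rflnb* (0.0485) for *Hcst*, and *Tgif1* (0.0708) and *Zfr* (0.0798) for *Treml2*. These distances rest mostly on the step between the groups, since all points come from the same 6 libraries.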

How the data were processed

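Ctrl and LIP libraries were grouped by their labels, 3 per group. For each gene the authors deposited raw counts of reads and FPKM values, which scale the counts to gene length and library size. The submitters' processing notes name cutadapt 1.9, FastQC and GRCm38. The aligner, the counter and the use of strand are not given in the sources used here. Smart-seq2 has no molecular identifiers, so reads are not independent molecules.

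Counts of 10440 genes (mean FPKM of 1 or more) were tested with edgeR 4.0.16 (R 4.3.3), using TMM, the quasi-likelihood test and Benjamini-Hochberg adjustment. SE was obtained from the log2 fold change and the F statistic. Where a name had several rows (50 names), that of higher mean FPKM was kept. Alternatives used limma 3.58.1, DESeq2 1.42.0, other scalings and filters, and each library left out. Ratios had exact permutation tests. The code was tested on simulated data.

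Members and lists were chosen with earlier results of these data known. Named are all members, the 4 genes of highest mean FPKM per list, the locus genes and neighbours listed that have a mean FPKM of at least 1, and the 2 genes most like each member. A few of these genes are not reported here. No pair of libraries agreed within sampling noise.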

Additional observations from a re-analysis of the deposited data

How the results depend on the processing

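Of the 6 members tested, 5 were higher in every alternative except 2, library totals without haemoglobin genes (4, a setting chosen after seeing the data) and scaling on the mature neutrophil genes (0 higher, 5 lower, with 1 pathway gene higher and 62 lower). Under that last scaling the log2 fold changes turned to -0.38 for *Trem1*, -0.15 for *Trem3*, -1.61 for *Treml2*, -0.70 for *Treml4*, -0.28 for *Tyrobp* and -0.98 for *Hcst*. The other named genes that turned there were *Actb* (-0.90), *Pglyrp1* (-0.19), *Apoe* (-1.25), *Clu* (-0.56), *Cd300ld* (-0.18), *Sirpb1b* (-0.0039), *Pilrb2* (-0.20), *Fcer1g* (-0.27), *Nfam1* (-0.038), *Lyn* (-0.72), *Grb2* (-1.16), *Ptpn6* (-1.28), *Dok3* (-0.87), *Inpp5d* (-1.49), *Psenen* (-1.32), *Ncstn* (-0.98), *Cxcl2* (-0.017), *Ccl3* (-0.94), *Ccl4* (-1.30), *Treml1* (-0.57), *Oard1* (-1.75) and *Nfkbid* (-0.64). Library totals without haemoglobin genes turned *Ptpn6* (-0.014), *Psenen* (-0.057) and *Ccl4* (-0.043), and also *Treml2* (-0.34), *Inpp5d* (-0.22) and *Oard1* (-0.50), which had not passed the test with TMM. With library totals *Treml2*, *Inpp5d* and *Oard1* were -0.13, -0.014 and -0.29. By construction these scalings move every gene by about the same amount. Calls were also lost for *Apoe*, *Ptpn6*, *Psenen* and *Ccl4* with library totals, for *Hcst*, *Apoe*, *Grb2* and *Ncstn* with totals without haemoglobin genes, for *Psenen* and *Ccl4* in limma and with a filter of 5 FPKM, and for *Cd300lb*, *Fgr*, *Mmp9* and *Il1b* with scaling on neutrophil genes, while DESeq2 called *Inpp5d*.

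Counts over all genes moved by more than 1.5 times with scaling on mature neutrophil genes (68 higher, 9187 lower), library totals without haemoglobin genes (1460 and 5120) and a filter of 5 FPKM (1768 and 1869 of 5328), against 2766 and 2835. The split of calls also shifted toward lower with library totals (1919 higher, 4146 lower) and limma (2010 and 4249). With each library left out in turn, *Trem1* lay between 1.35 and 1.48, *Trem3* 1.60 and 1.69, *Treml4* 0.94 and 1.22, *Tyrobp* 1.47 and 1.58 and *Hcst* 0.75 and 0.90, all called in each of the 6 fits, and *Treml2* between 0.08 and 0.28, called in 0. The log2 ratio to *Tyrobp* ran from -0.24 to 0.0088 for *Trem1* and from -0.22 to 0.047 for *Clec5a*, both above 0 without the first Ctrl library. Same-numbered libraries came from different mice and their deviations correlated by 0.0212 to 0.0562, so the numbers do not pair them. A replicate block gave the same 5 members, 45 pathway genes higher and 15 lower.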
